A study of Mus musculus with 4 samples.

Results

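The genes of calcium/calmodulin-dependent protein kinase II (CaM kinase II) were examined in brain RNA of adult female mice: the kinase subunit genes Camk2a, Camk2b, Camk2d and Camk2g, and the inhibitor genes Camk2n1 and Camk2n2. They were taken by symbol from GENCODE mouse M21, and every row of the deposited expression table whose transcript identifier belongs to one of them was kept. This gave 6 of the 37929 genes and 49 of the 94538 transcript rows. The study used CFW mice, an outbred strain, in 4 treatment groups with 1 RNA library each. The E2 + Gly group carried a 17β-estradiol (E2) pellet and received glyceollin, a mixture of soybean stress compounds, the Gly group carried a placebo pellet and received glyceollin, the E2 group carried an E2 pellet and received vehicle, and the control group carried a placebo pellet and received vehicle. Intraperitoneal injections ran for 11 days and began 1 week after the pellet was implanted. The library of a group pooled RNA from the brain hemispheres of 2 mice (E2 + Gly and control) or 3 mice (Gly and E2). It holds all cell types of the tissue and no spread between animals.

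The 4 value columns of the table are headed A_0, B_0, C_0 and D_0, and these names carry no treatment. No column is therefore assigned to a treatment here, no treatment effect is reported and no difference between treatments is tested. The values are FPKM, fragment counts scaled by transcript length and by the mapped fragments of the library, so that levels of different genes can be set side by side. The number of reads behind a value is unknown, so no counting error can be given.

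CaM kinase II links calcium entry to protein phosphorylation in neurons. Calcium-bound calmodulin opens the kinase, neighbouring subunits of the ring-shaped holoenzyme then phosphorylate each other at a regulatory threonine, and the enzyme stays active after calcium has fallen. In the forebrain it is among the most abundant proteins of the postsynaptic density and is known for its part in long-term potentiation. The alpha and beta subunits are mainly neuronal, and the beta subunit also binds actin. The delta and gamma subunits are made in many tissues. Camk2n1 and Camk2n2 encode small proteins that bind the active kinase and inhibit it.

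The 4 columns looked like brain tissue of female animals. The 6 neuronal markers summed to between 2356 and 2561 FPKM, and Slc17a7, the vesicular glutamate transporter of forebrain excitatory neurons, lay between 478 and 534 FPKM. Xist, made from the inactive X chromosome, was at 28.1 to 49.2 FPKM, and the 4 Y-linked genes examined were each below 0.1 FPKM in all columns. Between 36.1% (A_0) and 49.2% (B_0) of all transcript rows were listed at 0. Over 15786 expressed genes, the median absolute log2 difference between a pair of columns was 0.18 (A_0 and C_0) to 0.29 (C_0 and D_0).

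All 6 genes were detected in all 4 columns. Camk2a, which encodes the alpha subunit, had 531 FPKM in A_0, 486 in B_0, 573 in C_0 and 313 in D_0, each the sum over its transcript rows. D_0 stood well below the other columns. With a mean of 476 FPKM the gene ranked 159 among all 37929 genes. Camk2b, which encodes the beta subunit, had 405, 398, 428 and 341 FPKM in the same order of columns and ranked 202. It was again lowest in D_0, but by less.

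The genes of the broadly expressed subunits were several times lower. Camk2d, the gene of the delta subunit, had 46.4 FPKM in A_0, 106 in B_0, 75.0 in C_0 and 49.8 in D_0, so that the order of its columns differed from that of Camk2a. Camk2g, the gene of the gamma subunit, had 58.7, 63.3, 60.5 and 52.7 FPKM and varied little. Their mean levels ranked 1723 (Camk2d) and 2042 (Camk2g).

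The inhibitor genes were abundant and even. Camk2n1 had 324 FPKM in A_0, 313 in B_0, 305 in C_0 and 306 in D_0, below Camk2b in every column. Camk2n2 had 96.6, 93.2, 91.4 and 85.1 FPKM, above Camk2g in every column. By median level the order was Camk2a (508 FPKM), Camk2b (402), Camk2n1 (310), Camk2n2 (92.3), Camk2d (62.4) and Camk2g (59.6). The ranges over the 4 columns overlapped between Camk2a and Camk2b, between Camk2a and Camk2n1, between Camk2n2 and Camk2d, and between Camk2d and Camk2g. They did not overlap between Camk2b and Camk2n1, or between Camk2n1 and Camk2n2.

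**Figure D1:**
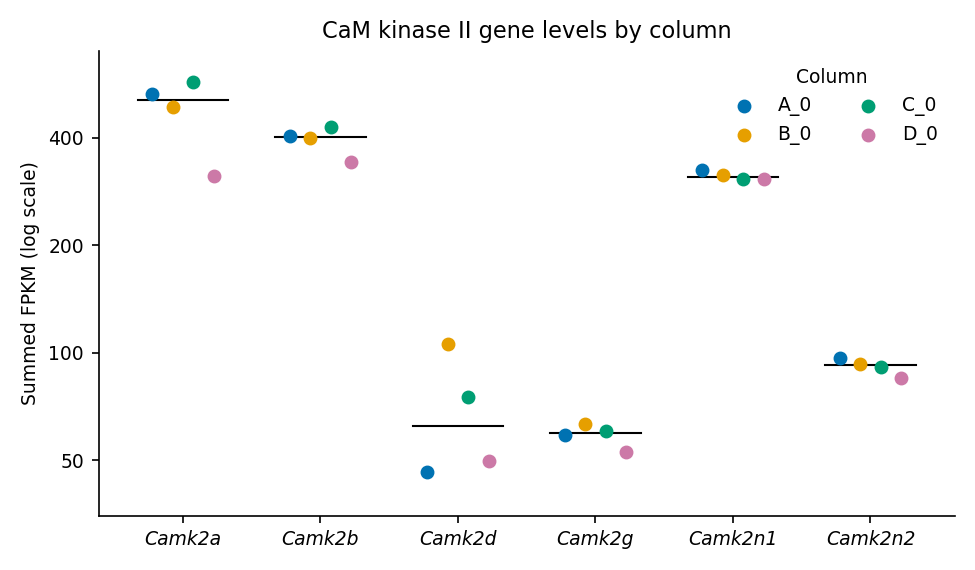
Summed FPKM of each gene (log axis) in columns A_0 to D_0 (points), with the median of the 4 columns as a line. Camk2a in D_0 (313 FPKM) lies below its other columns, Camk2d in B_0 (106 FPKM) above its others, and the 4 points of Camk2n1 lie between 305 and 324 FPKM.

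Taken per column, Camk2a and Camk2b made up most of the summed kinase FPKM. Camk2a held 51.0% of the summed FPKM of the 4 kinase genes in A_0, 46.1% in B_0, 50.4% in C_0 and 41.3% in D_0. Camk2b held 38.9%, 37.8%, 37.7% and 45.1%. The pair together held between 83.9% (B_0) and 89.9% (A_0). Camk2d held 4.46% to 10.1% and Camk2g 5.32% to 6.96%.

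The ratio of the alpha to the beta gene was 1.31 in A_0, 1.22 in B_0, 1.34 in C_0 and 0.916 in D_0. On summed FPKM, D_0 was thus the single column in which Camk2b exceeded Camk2a. This order turned under other choices of what is summed: with the highest row of each gene alone the ratio in D_0 was 2.05, and with each row multiplied by its transcript length, a measure in fragments, it was 1.15. The summed kinase FPKM was 1041, 1054, 1137 and 757, again lowest in D_0. Both inhibitor genes together had 421, 407, 397 and 392 FPKM, a narrower range, so that the ratio of inhibitor to kinase FPKM was 0.404, 0.386, 0.349 and 0.517. Camk2n1 exceeded Camk2n2 by 3.34 to 3.601 times. Levels of messenger RNA do not give the ratio of the proteins.

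**Figure D2:**
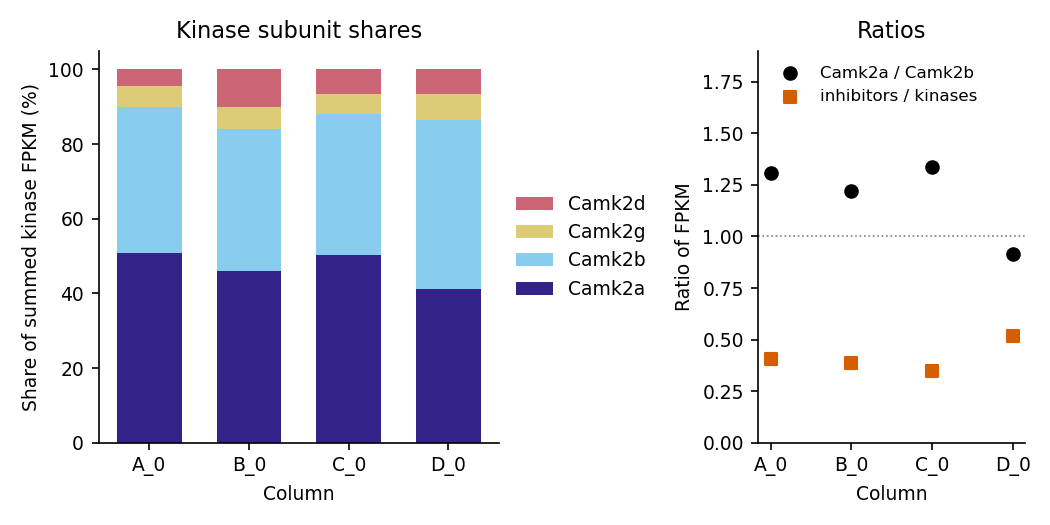
Left, share of each kinase gene in the summed FPKM of the 4 kinase genes (%) by column. Right, ratio of Camk2a to Camk2b (circles, dotted line at 1) and of both inhibitor genes to the 4 kinase genes (squares); in D_0 the first ratio is 0.916 and the second is 0.517.

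As background, Camk2a is known for its high expression in excitatory neurons of the forebrain. The 6 markers of glutamatergic forebrain neurons summed to 587 FPKM in A_0, 607 in B_0, 639 in C_0 and 574 in D_0, most of it from Slc17a7, and 2 of the 6 had a highest-to-lowest ratio above 1.5, as did 49.2% of all genes. Emx1, a cortical transcription factor of that list, was lowest in D_0, at 6.19 FPKM against 8.003 to 9.81 in the other columns. The 5 cerebellar markers summed to 565, 478, 474 and 369 FPKM, with 4 of the 5 above that ratio. Of these 5, Pcp2, Cbln1 and Gabra6 were lowest in D_0, and Calb1 and Zic1 in C_0. The 6 astrocyte markers summed to 2690, 2795, 2362 and 2167 FPKM, also lowest in D_0. Of these, 2 of the 6 were above the ratio, the glutamate transporter genes Slc1a2 and Slc1a3. Within that list Aqp4 and Gja1 were lowest in C_0. The GABAergic and oligodendrocyte sums were also lowest in D_0, at 810 and 2723 FPKM. Other sums were not lowest there. The neuronal markers summed to 2407, 2532, 2356 and 2561 FPKM, highest in D_0. The choroid plexus sum was also highest in D_0, at 353 FPKM, and the striatal sum was lowest in A_0, at 418 FPKM. None of the markers of these lists was at 0. In tissue RNA, fewer cells of a type and less RNA per cell cannot be told apart, and the part of tissue composition in the Camk2a values was not tested.

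Each kinase gene is spliced into variants that differ mainly in the linker between the catalytic domain and the association domain. The 6 genes had 30 rows of protein-coding and 19 of other transcript types, and 7 rows were listed at 0 in all columns. A transcript is named here where it reached 10% of its gene's FPKM in at least 1 column. This held for 17 rows. Camk2a-202, Camk2a-204, Camk2b-201 and Camk2d-203 fell short of it and were added after their values were seen.

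Camk2a lies on the forward strand of chromosome 18 (60925618 to 60988152, GRCm38) and had 7 rows. Its leading transcript was Camk2a-203, with 18 exons and 478 codons. It had 374 FPKM in A_0, 349 in B_0, 381 in C_0 and 301 in D_0, which is 70.5%, 71.8%, 66.4% and 96.2% of the gene. The level of this transcript thus varied by 1.27 times, less than the gene. Camk2a-201, which differs in its coding part by a single extra exon of 33 bases, had 79.7, 105, 93.1 and 0.125 FPKM. It made up 15.02% to 21.6% of the gene in A_0, B_0 and C_0, and 0.0400% in D_0. An inserted exon of this size in the linker is known from the alpha-B variant, which carries a nuclear localization signal.

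Camk2a-207, an incomplete model of 530 bases in the first part of the coding region, had 74.7, 27.6, 97.2 and 7.16 FPKM. It was also lowest in D_0. The lower Camk2a value of D_0 was spread over 3 rows. Against A_0, Camk2a-201 fell by 79.6 FPKM in D_0, Camk2a-203 fell by 73.2 and Camk2a-207 fell by 67.6. Camk2a-202 and Camk2a-204 start inside the gene, beyond the catalytic exons, and have 189 and 200 codons. A product of this kind, the anchoring protein alpha-KAP, is known from skeletal muscle. Camk2a-202 stayed below 5 FPKM, and Camk2a-204 had 4.36 FPKM in D_0 and was listed at 0 in the other columns.

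The beta gene Camk2b lies on the reverse strand of chromosome 11 (5969644 to 6066362, GRCm38) and had 15 rows. The leading ones were Camk2b-210, with 219, 183, 255 and 147 FPKM in A_0 to D_0, and Camk2b-209, with 143, 163, 134 and 171 FPKM. They share all coding exons, with 542 codons, and differ outside them: Camk2b-210 has a different start and an extra gap of 30 bases in its last part. The columns in which the first was high were those in which the other was low. Summed, this coding form had 361, 345, 389 and 318 FPKM, or 86.7% to 93.0% of the gene, and varied by 1.22 times.

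Camk2b-201, with 503 codons, differs from the leading form mainly by lacking 2 linker exons, and had 15.4 FPKM in A_0, 29.1 in B_0, 13.2 in C_0 and 2.85 in D_0. The skipped exons are shown here because they separate the long form from the shorter one. They lie on the reverse strand at chr11:5981070-5981114 and chr11:5987057-5987131 and are printed 5′ to 3′ along the transcript.
45-base exon: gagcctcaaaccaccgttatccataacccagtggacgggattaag
75-base exon: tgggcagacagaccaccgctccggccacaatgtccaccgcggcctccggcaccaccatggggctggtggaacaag
Rows that hold the 45-base exon made up 95.0%, 92.2%, 95.6% and 96.7% of the FPKM of the coding rows that span it. The shares for the 75-base exon were the same to 3 digits. The long linker form thus dominated in all 4 columns.

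The gamma gene Camk2g, on the reverse strand of chromosome 14 (20734875 to 20794088, GRCm38), had 3 rows, all complete and coding, and 14 further GENCODE M21 transcripts of it were without a row. Camk2g-201, with 529 codons, had 34.7, 32.9, 29.6 and 25.8 FPKM in A_0 to D_0, or 49.0% to 59.1% of the gene. Camk2g-203, with 495 codons, had 10.1, 24.9, 14.7 and 15.7 FPKM. Camk2g-202, with 518 codons, had 13.8, 5.50, 16.1 and 11.2 FPKM. B_0 was the column in which Camk2g-203 was highest and Camk2g-202 lowest.

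These 3 forms differ by 2 linker exons, at chr14:20745792-20745860 and chr14:20747819-20747851. Camk2g-201 holds both, Camk2g-202 holds the longer one and Camk2g-203 holds neither. The capitals mark the lysine, arginine and lysine codons that open the shorter exon, the kind of basic run that serves as a nuclear localization signal in CaM kinase II variants.
69-base exon: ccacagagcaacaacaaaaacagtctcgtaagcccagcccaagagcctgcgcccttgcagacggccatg
33-base exon: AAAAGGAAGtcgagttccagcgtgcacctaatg
The row with the 33-base exon made up 59.1% of the gene in A_0, 52.0% in B_0, 49.0% in C_0 and 49.0% in D_0. Rows with the 69-base exon made up 82.7%, 60.7%, 75.7% and 70.3%. The shorter exon was most frequent in A_0, and the longer one was least frequent in B_0.

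The delta gene Camk2d, on the forward strand of chromosome 3 (126596302 to 126846326, GRCm38), was split over the most rows, 22. Only 6 of them were above 0 in all columns. By mean share its leading row was Camk2d-212, a non-coding model of 206 bases at the start of the gene, with 62.7 FPKM in B_0, 18.2 in C_0 and 10.6 in D_0, and listed at 0 in A_0. This row alone was 59.2% of the gene in B_0. Among complete coding transcripts Camk2d-206, with 512 codons, led with 16.2, 21.9, 15.1 and 13.7 FPKM. Camk2d-202, with 492 codons, had 4.77, 0.640, 7.37 and 10.4 FPKM.

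The 9 protein-coding rows of Camk2d summed to 35.3, 39.8, 28.9 and 35.8 FPKM. Their ratio of highest to lowest column was 1.38, against 2.28 over all rows of the gene. On this narrower sum Camk2g exceeded Camk2d in every column, with a median ratio of 1.63 in place of 0.932. In FPKM the high Camk2d value of B_0 thus lay largely in its short non-coding row. With each row multiplied by its transcript length in kilobases, B_0 was still highest, at 160 against 112 in A_0, 126 in C_0 and 122 in D_0.

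Other rows of Camk2d reached 10% of the gene in a single column each. Camk2d-201, an incomplete coding model, had 6.505 FPKM in A_0 and was listed at 0 in the other columns. Camk2d-217, a retained-intron model, was at 13.9 FPKM in C_0 and below 5 FPKM elsewhere. Camk2d-222, a non-coding model, was at 12.3 FPKM in C_0 and below 2 FPKM elsewhere. Camk2d-220, an incomplete coding model, was above 0 throughout, with 4.34, 3.41, 4.78 and 7.68 FPKM. The minor rows of this gene thus differed from column to column in which one was present.

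Camk2d-206 and Camk2d-202 differ by a linker exon of 60 bases on the forward strand at chr3:126805857-126805916. Rows with this exon made up 63.3%, 97.7%, 68.9% and 61.9% of the coding FPKM that spans it, so that B_0 stood above the others. Camk2d-206 and Camk2d-203 have the same length and exchange one exon of 73 bases in the catalytic domain for another, at chr3:126770785-126770857 or at chr3:126771774-126771846. Capitals in the 73-base exons mark the 23 bases at which they differ.
60-base exon: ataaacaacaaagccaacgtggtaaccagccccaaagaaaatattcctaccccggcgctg
73-base exon of Camk2d-206: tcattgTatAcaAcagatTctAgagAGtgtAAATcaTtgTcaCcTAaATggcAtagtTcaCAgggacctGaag
73-base exon of Camk2d-203: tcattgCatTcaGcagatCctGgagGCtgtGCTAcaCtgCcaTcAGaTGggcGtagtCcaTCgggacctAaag
The exon of Camk2d-206 was in 86.0%, 62.5%, 93.9% and 86.6% of the coding FPKM across this part, and the other one in 14.0%, 37.5%, 6.07% and 13.4%. Camk2d-203 itself was above 0 in B_0 only, at 7.81 FPKM.

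**Figure D3:**
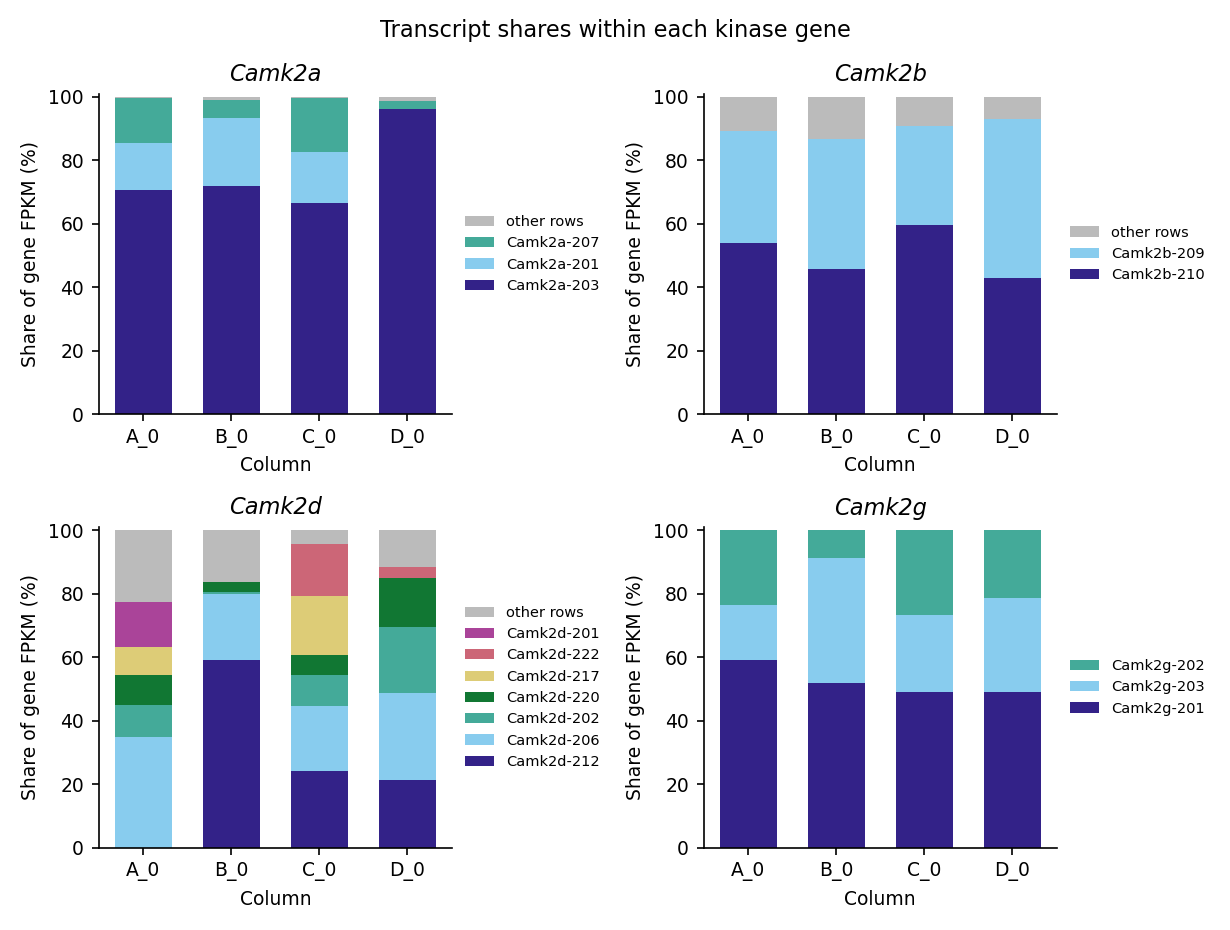
Share of each named transcript in the FPKM of its gene (%) by column, with all other rows in grey. Camk2a-203 holds 96.2% of Camk2a in D_0 against 66.4% to 71.8% in the other columns, and Camk2d-212 holds 59.2% of Camk2d in B_0.

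**Figure D4:**
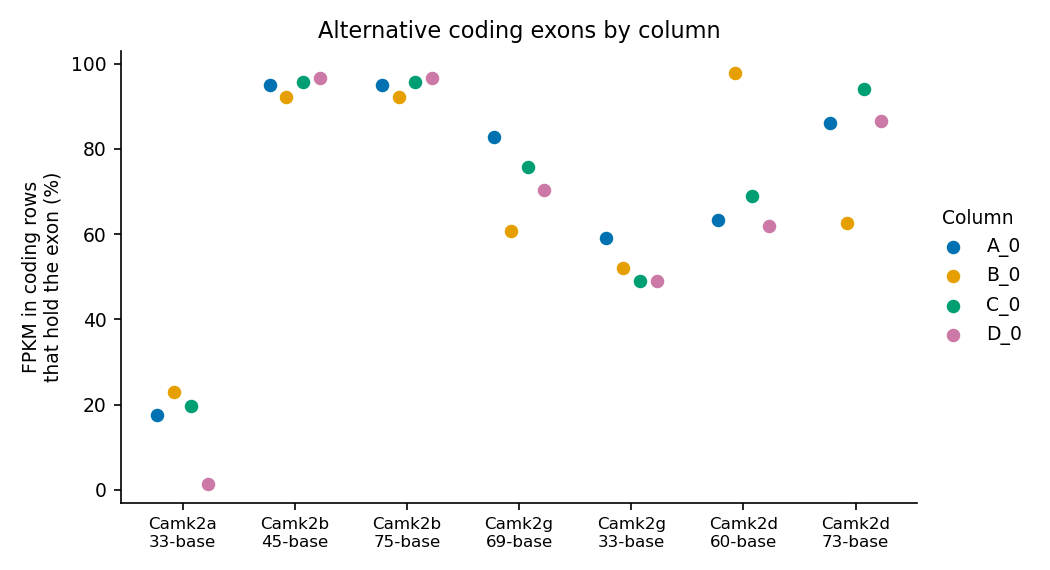
Share of the FPKM of the protein-coding rows spanning an exon that lies in rows holding it (%), by column (points); the Camk2d 73-base exon shown is that of Camk2d-206. The Camk2b exons lie above 92% in every column, and the Camk2a 33-base exon is at 1.47% in D_0 against 17.5% to 22.9% in the other columns.

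The subunit proteins are closely alike. Translated leading transcripts of any pair of the kinase genes shared 84.3% to 87.6% of their aligned residues. The codons around the regulatory threonine are shown for the leading transcript of the beta, delta and gamma genes, with the threonine codon in capitals. It is codon 287 in these and codon 286 in the alpha gene.
Camk2b: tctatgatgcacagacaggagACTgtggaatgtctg
Camk2d: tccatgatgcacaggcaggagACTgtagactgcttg
Camk2g: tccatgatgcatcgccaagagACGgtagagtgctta
For the bases, the longest identical run was taken, a different measure from the share of aligned residues. The longest run of identical bases shared by transcripts of any pair of kinase genes was 34, between Camk2a and Camk2b and between Camk2a and Camk2d. The sources used here state neither the read length nor how reads with several matches were handled, so reads shared between the genes cannot be assessed.

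The inhibitor genes had 1 row each, so their levels do not depend on how reads were divided among transcripts. Camk2n1-201 (chromosome 4, 138454314 to 138460123, forward strand, GRCm38) is a transcript of 4444 bases with a coding part of 78 codons. Camk2n2-201 (chromosome 16, 20619215 to 20621287, reverse strand) has 1291 bases and 79 codons. Their coding sequences, without the stop codon, are given with the 54 codons for the same residue in both in capitals.
Camk2n1: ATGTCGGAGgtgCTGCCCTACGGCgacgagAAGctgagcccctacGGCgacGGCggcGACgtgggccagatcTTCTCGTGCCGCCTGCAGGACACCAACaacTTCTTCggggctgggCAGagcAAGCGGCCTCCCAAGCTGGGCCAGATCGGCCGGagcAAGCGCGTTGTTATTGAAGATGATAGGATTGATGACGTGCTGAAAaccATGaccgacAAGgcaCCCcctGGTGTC
Camk2n2: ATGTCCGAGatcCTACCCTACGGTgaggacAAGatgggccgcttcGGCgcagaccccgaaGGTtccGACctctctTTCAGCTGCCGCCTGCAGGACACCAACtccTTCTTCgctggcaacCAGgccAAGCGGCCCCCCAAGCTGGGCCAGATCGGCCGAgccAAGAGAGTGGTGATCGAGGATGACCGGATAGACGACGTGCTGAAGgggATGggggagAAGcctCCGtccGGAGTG
The aligned residues were 71.1% identical and the aligned bases 72.4%. The run of capitals in the second part of both sequences, broken by 1 codon, covers the region that holds the known kinase-binding stretch of these inhibitors.

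The spread over the columns was read against that of all genes. Among the 6 genes, 2 had a highest column above 1.5 times the lowest, Camk2a at 1.83 and Camk2d at 2.28. Of the 17195 genes with a mean of at least 1 FPKM, 49.2% did, so the count for the 6 genes is not above the background. Of the 11683 genes with a mean of at least 5 FPKM, 37.8% did. With each row multiplied by its transcript length, 0 of the 6 did, with Camk2a at 1.495 and Camk2d at 1.43, and 40.0% of all genes did. The median ratio was 1.23 for the 6 genes and 1.49 for all genes. Camk2n1, at 1.06, was lower than all but 0.896% of genes, Camk2n2 was at 1.14, Camk2g at 1.20 and Camk2b at 1.255. With the columns scaled to the same sum, Camk2n1 was at 1.15 and Camk2n2 at 1.23. Without D_0 the ratio of Camk2a was 1.18.

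**Figure D5:**
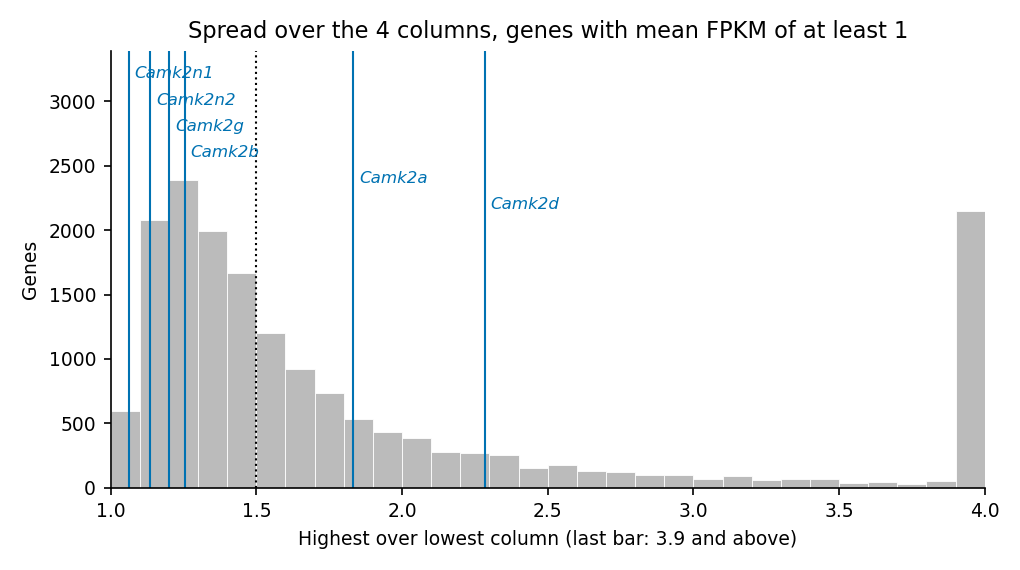
Histogram of the highest over the lowest column for the 17195 genes with a mean of at least 1 FPKM, with the 6 genes as blue lines and the 1.5 threshold dotted; the last bar collects all ratios of 3.9 and above. Of the 6 genes 4 lie at 1.255 or below, and Camk2a (1.83) and Camk2d (2.28) lie above the threshold.

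Transcript rows varied more than genes. Of the members' 28 rows with a mean of at least 1 FPKM, 23 had a ratio above 1.5, and 73.4% of all 34344 such rows did. The median ratio was 4.48 over the 28 rows and 2.40 over all rows. The share of the leading transcript ranged over more than 20 percentage points in 2 of the 4 kinase genes, Camk2a (29.7 points) and Camk2d (59.2 points), as it did in 55.9% of 9535 genes with several rows. Shifts of this size between transcripts of a gene were thus common in this table.

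Genes that act with CaM kinase II were counted from lists. For comparison, 49.2% of all genes with a mean of at least 1 FPKM had a highest-to-lowest ratio above 1.5. Among genes with a mean of at least 5 FPKM 37.8% did. Calmodulin, the calcium sensor that opens the kinase, was abundant: Calm3 averaged 2414 FPKM and Calm2 664 FPKM, with ratios of highest to lowest column of 1.28 and 1.20. The calmodulin-like gene Calml4 was far lower, at 1.12 to 5.27 FPKM, and exceeded a ratio of 1.5. None of the 3 calmodulin-binding genes that buffer it did, among them Nrgn (neurogranin), with 1004, 1294, 1132 and 1305 FPKM. Of the 8 other CaM kinases and relatives, 1 exceeded 1.5, Camk1g, with 14.4, 16.4, 13.1 and 10.6 FPKM. Camkv, a kinase-like protein without known catalytic activity, averaged 165 FPKM with a ratio of 1.08.

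Among the 17 synaptic partners and substrates, 6 exceeded 1.5. Of all genes with a mean of at least 1 FPKM 49.2% did, and of those with at least 5 FPKM 37.8% did. Shank3, a postsynaptic scaffold, had 52.0, 47.1, 53.3 and 33.2 FPKM, and Gria1, an AMPA receptor subunit that the kinase phosphorylates, had 140, 123, 138 and 92.5 FPKM. Both were lowest in D_0. Arc, an immediate early gene, had 20.6, 21.2, 28.3 and 53.5 FPKM and was highest there, as were Gria2 (19.3, 31.01, 19.5 and 36.6 FPKM) and Actn2 (4.52, 7.05, 7.002 and 9.30 FPKM). Homer1 had 17.8, 28.6, 20.3 and 23.6 FPKM. The NMDA receptor genes, whose products hold the kinase at the synapse, stayed below the threshold, with Grin1 at 402, 481, 474 and 459 FPKM. Dlg4, the gene of the scaffold PSD-95, averaged 965 FPKM with a ratio of 1.34.

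None of the 11 phosphatase genes and regulators exceeded 1.5. The share over all genes was 49.2% at a mean of at least 1 FPKM and 37.8% at a mean of at least 5. Ppp3ca, the catalytic subunit of calcineurin, averaged 262 FPKM with a ratio of 1.36, and Ppp1r1b, the striatal phosphatase inhibitor DARPP-32, averaged 370 FPKM with a ratio of 1.21. The median ratio was 1.26 for the calmodulin buffers, 1.34 for the synaptic partners and 1.29 for the phosphatase list. It was 1.49 over all genes. For the list of other CaM kinases it was 1.13, a value over 10 genes that include the members Camk2n1 and Camk2n2.

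The genes closest to a member over the 4 columns were found by the Euclidean distance of log2(FPKM + 0.1) values, 3 for each member. Nearest to Camk2a were Clip3 (distance 0.17), with 531, 508, 577 and 349 FPKM, Atp1b2 (0.25) and Gnao1 (0.39). Thy1 (0.13), Ldhb (0.18) and Kif5a (0.20) were nearest to Camk2b. Camk2d had no close neighbour, its nearest being Vps53 (0.35), Gm17181 (0.45) and Asap1 (0.46). Magee1 (0.07), Cdk4 (0.09) and Hpcal1 (0.11) lay nearest to Camk2g. Ndufb9 (0.05), Mdh2 (0.06) and Ran (0.08) lay nearest to Camk2n1, and Reep5 (0.07), Mllt11 (0.08) and Ctsb (0.08) to Camk2n2. With 4 columns such a likeness is a description of levels.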

How the data were processed

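One deposited table held FPKM values by transcript in 4 columns, which the authors made from 1 pooled library per treatment, per the labels. The columns name no treatment, and all 4 were used as libraries of adult female CFW brain. The submitters' processing notes name, with no role or order, Cuffdiff 2.2.1, Cufflinks 2.1.1, TopHat2 2.0.4, Trimmomatic 0.27, FastQC 0.10.1, CASAVA, Cuffnorm and the mm10 build. The sources used here give no annotation, read length or scaling between libraries. Identifiers were matched to GENCODE M21 (GRCm38) for 91144 rows, and rows were summed by gene (Python 3.11.15, pandas 2.3.3, Biopython 1.88). The values depend on how reads were divided among overlapping models. The script's sums, ratios and leading transcripts were checked on simulated data. Exon and coding sequences come from the GENCODE M21 transcripts, and none of Camk2a is shown. Named were all 6 members, transcripts of at least 10% of a gene in a column, the 3 nearest genes of each member, and from each list up to 4 genes of the highest mean FPKM and any with a ratio over 1.5. One gene of the lists is not reported here. Members and lists were chosen with earlier results of these data known. Alternatives summed other rows, rescaled the columns, changed filters, thresholds and the pseudocount, or left out a column.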

Additional observations from a re-analysis of the deposited data

Results flagged for a closer look

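In 32 quantities of the 6 genes, the 4 columns were searched for one that stood apart, meaning that its gap to the nearest column relative to the whole range was above Dixon's critical value for 4 values. Chance gives such a gap in about 1 of 20 groups, and the 4 columns are libraries of different treatments. The gap was found in 3 quantities. Camk2b held 45.1% of the kinase FPKM in D_0, against 37.7% to 38.9% in the other columns, with a gap of 0.830 of the range. The ratio of Camk2n1 to Camk2n2 was 3.601 in D_0, against 3.34 to 3.36. Camk2d-201, an incomplete coding model, held 14.0% of Camk2d in A_0 and was listed at 0 in the other columns. A row listed at 0 in all other columns has a gap equal to the whole range at any level. The chance rate above does not hold for it.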

How the results depend on the processing

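With the highest row of each gene alone, the median FPKM over the columns was 361 for Camk2a, 201 for Camk2b, 14.4 for Camk2d and 31.3 for Camk2g. Camk2a then held 57.6% of the kinase FPKM, and the median ratios were 1.81 for Camk2a to Camk2b, 2.03 for Camk2g to Camk2d and 0.660 for inhibitors to kinases. With protein-coding rows alone, Camk2g to Camk2d was 1.63 and Camk2d-206 held 49.1% of Camk2d. Scaling the columns to the same sum gave Camk2n1 a median of 297 FPKM. Chosen after seeing the data, the GENCODE basic rows gave Camk2d a median of 26.3 FPKM, and summing rows of the same coding exons put the leading Camk2b form at 90.0%. The count of members above 1.5 was 1 in place of 2 with protein-coding rows, with a threshold of 2, or without D_0, 3 at the lower threshold tried, and 0 with FPKM times transcript length. The ratio of Camk2a to Camk2b in D_0, 0.916, turned to 2.05 with the highest row alone and to 1.15 with FPKM times transcript length. The percentage of all genes above the threshold was 77.4 at the lower threshold tried and 27.0 at 2. Leaving out a column in turn gave 1 to 2 members, and 36.5% to 42.4% of genes, above 1.5. Weighted by transcript length, also chosen after seeing the data, the ratio of highest to lowest column was 1.495 for Camk2a and 1.43 for Camk2d. A pseudocount of 1 was also tried for the nearest genes. Camk2d-212 has no value with protein-coding rows, and the ratio of Camk2d has none with the highest row alone, which is listed at 0 in A_0. No paired analysis was possible because the columns carry no replicate number. Depth is unknown.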

Other observations

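The exchanged 73-base exons of Camk2d differed in which paralog they resemble. The exon of Camk2d-206 matched the exon of Camk2a at 48 of 73 bases, that of Camk2b at 51 and that of Camk2g at 54. The exon of Camk2d-203 matched them at 61, 58 and 50 bases.

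The 5 marker genes of the anterior pituitary, a gland that can remain attached to the brain, summed to 15.9 FPKM in A_0, 4.04 in B_0, 4.31 in C_0 and 4.69 in D_0. Prl, the gene of prolactin, was at 5.16 FPKM in A_0 and at 0.431 to 0.832 FPKM in the other columns, and Gh, the gene of growth hormone, was at 7.78 FPKM in A_0 and below 1 FPKM in the others. The other 3 genes, Pomc, Cga and Tshb, were not highest in A_0. Their part in the values of the CaM kinase II genes was not tested.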
